A study of Mus musculus with 44 samples.

Results

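The 10 genes described here encode parts of the Wnt signalling system known from the ovary: the ligands Wnt4 and Wnt5a, the receptors Fzd1 and Fzd4, the R-spondin receptors Lgr4 and Lgr5, the secreted Wnt-binding proteins Sfrp1 and Sfrp4, the feedback regulator Axin2 and Ctnnb1, which encodes β-catenin. They were chosen by gene symbol. All 10 were found in both deposited tables, among 22674 genes in the table of the maturation window and 18274 genes in that of the ovulation window. RNA was sequenced from ovarian follicles of wild-type CD-1 mice, an outbred strain, with exposure to PFNA in either of these windows. PFNA is perfluorononanoic acid, one of the per- and polyfluoroalkyl substances. In the maturation window, the gonadotropin-dependent growth of the follicle, 11 control libraries treated with the solvent DMSO were compared with 10 PFNA libraries. In the ovulation window 12 controls treated with hCG (human chorionic gonadotropin, which stands in for the ovulatory hormone LH) were compared with 11 libraries treated with hCG and PFNA, so both groups of that window carry hCG. The age of the mice, the dose, the hours of exposure and the number of follicles in a library are not in the labels. Nothing in them says that libraries of a group came from separate animals, so the p-values measure the spread between these libraries.

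Wnt ligands are secreted lipid-modified proteins that bind Frizzled receptors. In the canonical branch, receptor binding stops a cytoplasmic complex of Axin, APC and GSK3 from destroying β-catenin, which then acts in the nucleus with TCF/LEF factors. Axin2 is a common transcriptional target of that branch and closes a negative feedback loop. R-spondins, bound by Lgr receptors, keep Frizzled receptors at the cell surface, and secreted Frizzled-related proteins bind Wnt ligands outside the cell. In the ovary, Wnt4 is needed for female gonad development and follicle growth, Fzd4 for the formation of the corpus luteum, Fzd1 is known to be induced in granulosa cells by the ovulatory signal, and Sfrp4 is a known product of granulosa and luteal cells around ovulation.

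The promoters of Fzd1, Fzd4 and Axin2 are shown because, in the ovulation window, both receptors moved in opposite directions and Axin2, the usual readout of β-catenin activity, moved with Fzd1. Each is the 300 bases from 250 before to 50 after the RefSeq start of the gene on GRCm38.p6, in lower case, with matches to any of the searched motifs in capitals.

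Fzd1, chr5:4758167-4758466, minus strand: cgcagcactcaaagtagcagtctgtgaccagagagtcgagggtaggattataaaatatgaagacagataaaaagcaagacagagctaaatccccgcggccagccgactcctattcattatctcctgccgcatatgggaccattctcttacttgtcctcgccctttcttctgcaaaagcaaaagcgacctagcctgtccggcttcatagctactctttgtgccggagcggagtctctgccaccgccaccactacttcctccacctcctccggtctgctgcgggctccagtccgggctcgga
Fzd4, chr7:89404116-89404415, plus strand: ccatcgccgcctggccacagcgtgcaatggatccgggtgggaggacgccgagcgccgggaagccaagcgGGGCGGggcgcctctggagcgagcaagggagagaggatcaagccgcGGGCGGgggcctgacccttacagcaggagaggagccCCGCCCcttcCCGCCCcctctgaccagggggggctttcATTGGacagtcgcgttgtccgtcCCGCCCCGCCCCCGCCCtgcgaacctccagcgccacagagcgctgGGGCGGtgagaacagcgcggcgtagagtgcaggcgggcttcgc
Axin2, chr11:108920099-108920398, plus strand: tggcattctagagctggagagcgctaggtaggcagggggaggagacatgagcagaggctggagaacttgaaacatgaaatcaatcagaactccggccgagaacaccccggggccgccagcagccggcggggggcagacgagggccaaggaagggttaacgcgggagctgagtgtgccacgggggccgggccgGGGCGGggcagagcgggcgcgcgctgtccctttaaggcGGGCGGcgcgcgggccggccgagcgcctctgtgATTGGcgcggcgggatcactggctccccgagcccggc

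The motifs, searched on both strands, were TCF/LEF (CTTTGAA or CTTTGAT, present in 8.67% of 32544 promoters of this length), the CRE half-site (TGACG, 20.9%), AP-1 (TGANTCA, 7.79%), RUNX (TGTGGT or TGCGGT, 22.4%), the GC box (GGGCGG, 35.9%) and the CCAAT box (CCAAT, 37.4%). The Fzd4 window held 8 GC boxes, some of them overlapping, and 1 CCAAT box, and the Axin2 window held 2 GC boxes and 1 CCAAT box. None of the 6 motifs occurred in the Fzd1 window. RefSeq starts Fzd1 further upstream than GENCODE (4758035, minus strand), so this window does not reach the GENCODE start. GC content was 54.0% for Fzd1, close to the median of all promoters (53.0%), and 72.7% and 70.0% for Fzd4 and Axin2. Windows were also found for Wnt4, Lgr4 and Ctnnb1. Of the 6 genes with a window none matched TCF/LEF in it, which says only that those letters are not in these bases. Wnt5a, Sfrp1, Sfrp4 and Lgr5 have no entry in the promoter table.

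Before the comparisons, 3 PFNA libraries of the maturation window need naming. Summed levels of 12 oocyte markers, such as the egg coat gene Zp3 and the growth factor gene Gdf9, lay between 127 and 206 TPM (transcripts per 1000000, a length-adjusted share of the library) in the controls. With PFNA their median was 2.09 TPM, but replicates 1, 2 and 10 had 133, 113 and 352 TPM. Replicate 10 also had the highest PFNA sums of stroma (1648 TPM, next 864), surface epithelium (95.7 TPM, next 39.2), smooth muscle, endothelium and immune markers, and the lowest of granulosa markers (13290 TPM). Inha made up 11170 TPM of that granulosa sum. The granulosa markers did not move as one in this library. Esr2 (35.8 TPM) and Amh (27.3 TPM) were at their highest PFNA level. Inha, Inhbb, Hsd17b1, Fshr, Cyp19a1, Nr5a2 and Foxl2 were below their PFNA mean. Upk3b, a mesothelial and surface epithelium gene, was at 37.1 TPM in it against at most 6.29 TPM in the controls. Acta2 alone made up 93.6 TPM of its smooth muscle sum (96.1 TPM). Des (0.757 TPM) was below its PFNA mean of 2.21 TPM, and Cnn1 (0.500 TPM) and Myh11 (1.27 TPM) were above theirs. The smooth muscle sum therefore says little of the markers other than Acta2. The granulosa genes Foxl2 and Fshr were present in both windows (control means 1172 and 6.60 TPM, and 41.1 and 13.7 CPM). In whole follicles, fewer cells of a type and less RNA per cell cannot be told apart.

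In maturation controls the 10 genes spanned a wide range. Ctnnb1 was highest, at 186 ± 15.96 TPM (SD, n = 11), and lay above Fzd4 in 11 of 11 libraries. Fzd4 (88.1 ± 21.5 TPM) and Fzd1 (70.7 ± 11.6 TPM) came next and exchanged order between libraries, with Fzd4 above Fzd1 in 7 of 11. Sfrp4 (12.4 ± 11.6 TPM) and Lgr4 (7.92 ± 0.972 TPM) also exchanged order (7 of 11), as did Wnt4 (4.61 ± 2.33 TPM) and Axin2 (3.78 ± 0.891 TPM), with 6 of 11. Wnt5a was at 5.96 ± 2.81 TPM and Sfrp1 at 1.57 ± 0.612 TPM. Lgr5 was listed at 0 in 5 of 11 controls and 7 of 10 PFNA libraries and reached 0.437 TPM at most. Its mean was under 1 TPM, so it was the 1 member not tested in that window. Among the tested genes the coefficient of variation in controls ran from 8.60% for Ctnnb1 to 93.5% for Sfrp4.

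In hCG-treated controls the order differed. Divided by the length of the longest GENCODE transcript, Ctnnb1 (237 ± 16.6 CPM per kilobase, n = 12; CPM are counts per 1000000 of the library) and Sfrp4 (212 ± 89.6) were far above Lgr4 (36.4 ± 6.51) and Fzd1 (36.4 ± 17.4), whose order varied between libraries. Wnt4, Axin2, Sfrp1 and Wnt5a lay between 4.76 and 1.49 CPM per kilobase. Fzd4, second in the maturation controls, was ninth at 1.19 ± 0.200, above Lgr5 (0.250 ± 0.173) in 12 of 12 libraries. The tables differ in unit and gene models, so these are ranks within each table, and no test between them was made.

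The first comparison asked which of the genes PFNA changed during follicle maturation. Fzd4 and Lgr4 rose, and the other 7 genes tested did not pass the threshold. The count of 2 higher and 0 lower among 9 stands beside 29.4% of all 13712 genes called by limma at a Benjamini-Hochberg adjusted p under 0.05, with 13.3% of genes higher. It is therefore near the background. The median log2 fold change of the 9 was 0.40, against 0.02 over all genes tested. Because 1 TPM was added before taking log2, fold changes of low genes in this window are understated.

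Fzd4 (chromosome 7, 89404355 to 89413134, plus strand) is a Frizzled receptor that also binds the non-Wnt ligand norrin. In the controls its lowest, median and highest levels were 52.3, 87.3 and 125 TPM, and with PFNA 128, 144 and 179 TPM. All 10 PFNA libraries lay above every control, which held for 0.489% of the genes tested (0.788% had every PFNA library below every control, and none of the 9). The mean rose 1.65-fold, to 145 ± 14.9 TPM (SD, n = 10), which is 0.75 on the log2 scale (adjusted p by limma 9.3e-05, with an SE of 0.12). The call held in each of the 21 fits that left out a library, and without PFNA replicates 1, 2 and 10 together (log2 fold change 0.77).

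Lgr4 (chromosome 2, 109917647 to 110014257, plus strand), a receptor for R-spondins, had 5.65, 8.18 and 9.05 TPM as its lowest, median and highest control level. With PFNA it ran from 8.09 to 13.1 TPM, with a mean of 10.8 ± 1.502 TPM against 7.92 ± 0.972 TPM. Of the PFNA libraries, 8 of 10 lay above every control, and the exceptions were replicates 1 and 2, which lay within the control range. The log2 fold change was 0.40 (adjusted p by limma 0.00079, with an SE of 0.081). With the mean log2 level of the oocyte markers as a covariate, the Lgr4 call was lost (log2 fold change 0.35, adjusted p = 0.08) and Fzd4 was the 1 gene of the 10 called. That covariate nearly follows the treatment in this window, with oocyte sums of at least 127 TPM in controls and a PFNA median of 2.09 TPM. A call lost in this fit therefore cannot tell oocyte content from PFNA.

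Wnt5a (chromosome 14, 28504750 to 28527448), a ligand mostly linked to β-catenin-independent signalling, missed the threshold. Its lowest, median and highest levels were 2.73, 5.59 and 11.7 TPM in controls and 3.75, 9.11 and 24.6 TPM with PFNA. Both groups overlapped, with 2 of 10 PFNA libraries above every control. The log2 fold change was 0.63 (adjusted p by limma 0.062, with an SE of 0.25). Leaving out 1 library gave log2 fold changes from 0.48, without PFNA replicate 10 (24.6 TPM, next 13.9), to 0.75, without PFNA replicate 1. In 17 of these 21 fits Wnt5a still missed the threshold. The 4 fits that called it lacked PFNA replicate 1, PFNA replicate 2, control replicate 8 or control replicate 9 (adjusted p from 0.02 to 0.042). Of 8 other settings, 6 did not call Wnt5a. The 2 that did were median-ratio size factors (adjusted p = 0.046) and the fit lacking PFNA replicates 1, 2 and 10 together (adjusted p = 0.02).

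Sfrp1 (chromosome 8, 23411502 to 23449632) shows how 1 library can carry a mean. Control levels were 0.662, 1.56 and 2.49 TPM (lowest, median, highest) and PFNA levels 0.797, 2.26 and 24.4 TPM, where the next highest PFNA library had 4.03 TPM. Means were 1.57 ± 0.612 and 4.43 ± 7.10 TPM. The log2 fold change was 0.59 (adjusted p by limma 0.19, with an SE of 0.33), and 0.28 without PFNA replicate 10, the library with the high epithelial and stromal marker sums. Whether those cells account for its Sfrp1 level was not tested.

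Sfrp4 (chromosome 13, 19623104 to 19632994) ran from 3.10 to 42.7 TPM in controls, with a median of 9.76, and from 2.95 to 99.0 TPM with PFNA, with a median of 23.0. The groups overlapped almost wholly, with 1 of 10 PFNA libraries above every control and 1 below. The log2 fold change was 0.84 with a 95% interval from -0.15 to 1.83 (adjusted p by limma 0.22), so this spread leaves room for a change of either direction.

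Wnt4 (chromosome 4, 137277489 to 137299726), Fzd1 (chromosome 5, 4753839 to 4758035), Axin2 (chromosome 11, 108920349 to 108950783) and Ctnnb1 (chromosome 9, 120929216 to 120960507) had log2 fold changes of -0.09, 0.17, 0.08 and 0.06 (limma adjusted p 0.85, 0.38, 0.73 and 0.55). The 95% intervals were -0.67 to 0.49 for Wnt4, -0.10 to 0.44 for Fzd1, -0.22 to 0.38 for Axin2 and -0.08 to 0.20 for Ctnnb1. PFNA replicate 10 had the highest PFNA level of each, at 18.2, 156, 8.55 and 251 TPM. The sign of Wnt4 turned without control replicate 8 or PFNA replicate 6, and that of Axin2 without PFNA replicate 10. Without PFNA replicate 10 the log2 fold changes were -0.31 for Wnt4, 0.06 for Fzd1, -0.02 for Axin2 and 0.02 for Ctnnb1.

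**Figure D1:**
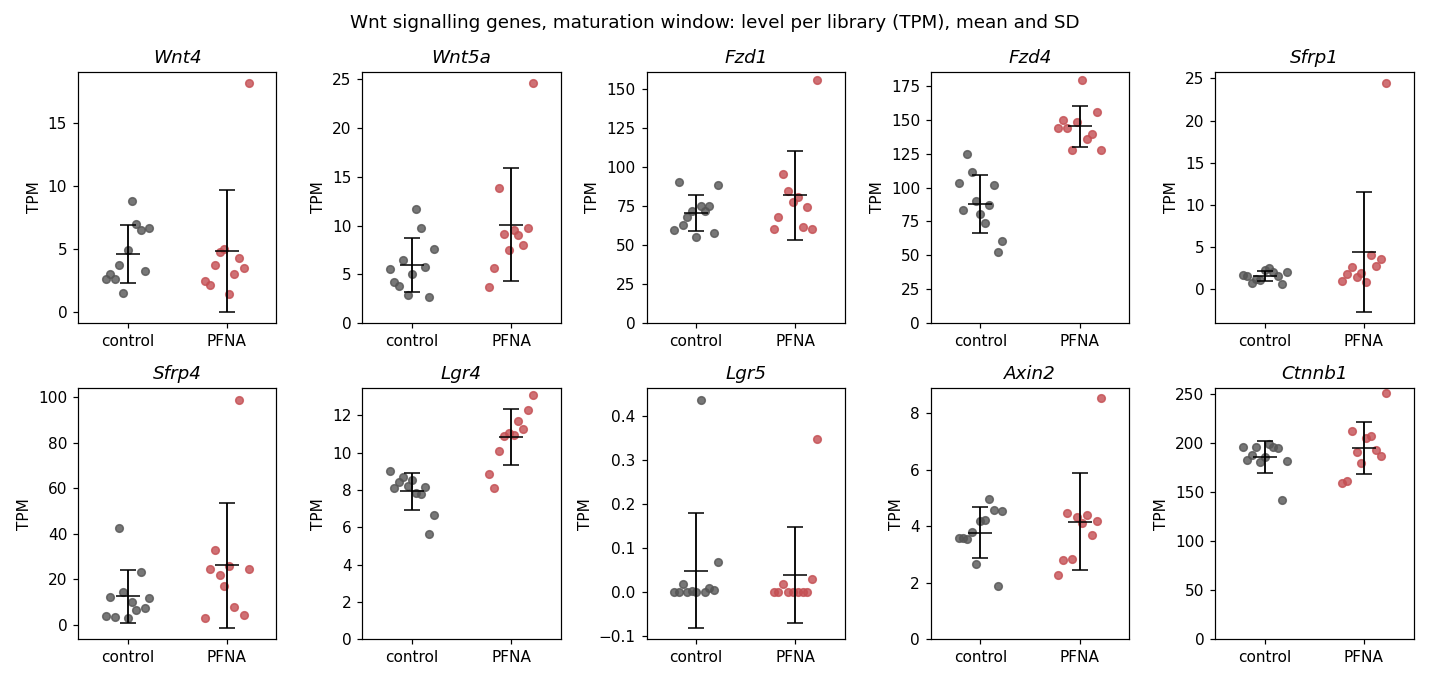
Level of each of the 10 genes in the 11 control and 10 PFNA libraries of the maturation window, in TPM on a linear axis that differs between panels; each point is a library, and the bars give the mean and SD. All 10 PFNA libraries lie above every control for Fzd4 only, and 1 PFNA library, replicate 10, stands far above the others for Wnt4, Wnt5a, Fzd1, Sfrp1 and Axin2.

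The same comparison after hCG gave a wider change. Fzd1, Sfrp4, Wnt5a, Wnt4, Sfrp1, Axin2 and Ctnnb1 fell with PFNA, Fzd4 rose, and Lgr4 and Lgr5 did not pass the threshold. All 10 genes were tested. The 8 called stand beside 73.2% of all 13441 genes called by edgeR's quasi-likelihood test, and the 7 lower beside 35.2% of genes called lower. The median log2 fold change of the 10 was -1.03, against 0.04 over all genes tested. The count of 8 calls was the same in each of 7 other settings and was 8 or 9 when a library was left out.

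Both ligands fell. Wnt4 had 8.17, 18.5 and 32.6 CPM as its lowest, median and highest control level and 1.68, 6.47 and 13.8 CPM with PFNA, and 9 of 11 PFNA libraries fell short of the lowest control. The means were 19.96 ± 7.62 CPM (SD, n = 12) and 6.87 ± 3.73 CPM (SD, n = 11), which is -1.53 as a log2 fold change (adjusted p by edgeR 4.1e-05, with an SE of 0.29). Wnt5a had control levels of 5.55, 10.01 and 18.2 CPM and PFNA levels of 1.003, 2.95 and 5.07 CPM. All 11 PFNA libraries lay below every control, as they did for 14.1% of the genes tested. Its log2 fold change was -1.77 (adjusted p by edgeR 1.3e-07, with an SE of 0.23), from 89 to 185 counts per control library and 14 to 74 counts per PFNA library.

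The receptors moved apart. Fzd1 lay between 86.8 and 343 CPM in controls (median 145) and between 18.8 and 38.5 CPM with PFNA (median 26.1). No PFNA library reached the lowest control. The mean was 5.52-fold lower (log2 fold change -2.47, adjusted p by edgeR 2.1e-10, with an SE of 0.21). Fzd4 lay between 6.42 and 10.3 CPM in controls (median 7.88) and between 14.1 and 48.7 CPM with PFNA (median 27.8), so that every PFNA library was above every control, which held for 11.9% of genes tested. Its mean was 3.71-fold higher (log2 fold change 1.89, adjusted p by edgeR 1.1e-10, with an SE of 0.16). Per kilobase of transcript, the means of Fzd1 and Fzd4 were 36.4 ± 17.4 and 1.19 ± 0.200 CPM in controls and 6.58 ± 1.48 and 4.40 ± 1.54 CPM with PFNA, where Fzd1 lay above Fzd4 in 9 of 11 libraries.

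Among the R-spondin receptors, Lgr4 lay between 141 and 234 CPM in controls and between 98.0 and 249 CPM with PFNA. The log2 fold change was -0.20 with a 95% interval of -0.44 to 0.05 (adjusted p by edgeR 0.16), and it passed without PFNA replicate 6, the library with the highest Lgr4 level (log2 fold change -0.28, adjusted p = 0.032). Lgr5 (chromosome 10, 115450311 to 115587780, minus strand), a stem cell marker of several epithelia and of the ovarian surface, had 2 to 39 counts per control library and 11 to 43 per PFNA library. Its log2 fold change was 0.59, with a 95% interval of -0.10 to 1.29 (adjusted p by edgeR 0.14), and its control levels spread from 0.132 to 2.67 CPM.

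Both secreted inhibitors fell. Sfrp1 had 5.87, 8.55 and 10.3 CPM (lowest, median, highest) in controls and 2.71, 4.001 and 5.78 CPM with PFNA, without overlap (log2 fold change -1.05, adjusted p by edgeR 5.6e-07, with an SE of 0.15). Sfrp4 was the most variable of the 10 after PFNA. Controls had 551, 769 and 1898 CPM, and PFNA libraries 25.0, 108 and 722 CPM, a coefficient of variation of 116%. PFNA replicate 6, at 722 CPM, was the 1 PFNA library within the control range, and the next highest had 325 CPM. The log2 fold change was -2.29 (adjusted p by edgeR 7.3e-05, with an SE of 0.45), and -2.83 without that library. Replicate 6 also had the highest summed level of theca markers (1016 CPM, next 598, control range 119 to 439). A single marker, Lhcgr, made up 778 CPM of that sum, against at most 113 CPM in the controls. The sum therefore says little of the other theca markers, and the part of theca cells in the Sfrp4 level of replicate 6 was not tested.

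Axin2, the target gene, fell. Its levels were 10.9, 15.99 and 19.8 CPM in controls and 3.57, 7.33 and 12.9 CPM with PFNA, and 10 of 11 PFNA libraries had less than the lowest control (log2 fold change -1.01, adjusted p by edgeR 7.2e-06, with an SE of 0.17). Ctnnb1 changed least of those called, from 857 ± 60.1 to 671 ± 108 CPM (log2 fold change -0.35, adjusted p by edgeR 0.00018, with an SE of 0.076). In 9 of 11 PFNA libraries it was under the lowest control. A transcript level says nothing of β-catenin protein, whose stability is what the pathway is known to control.

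**Figure D2:**
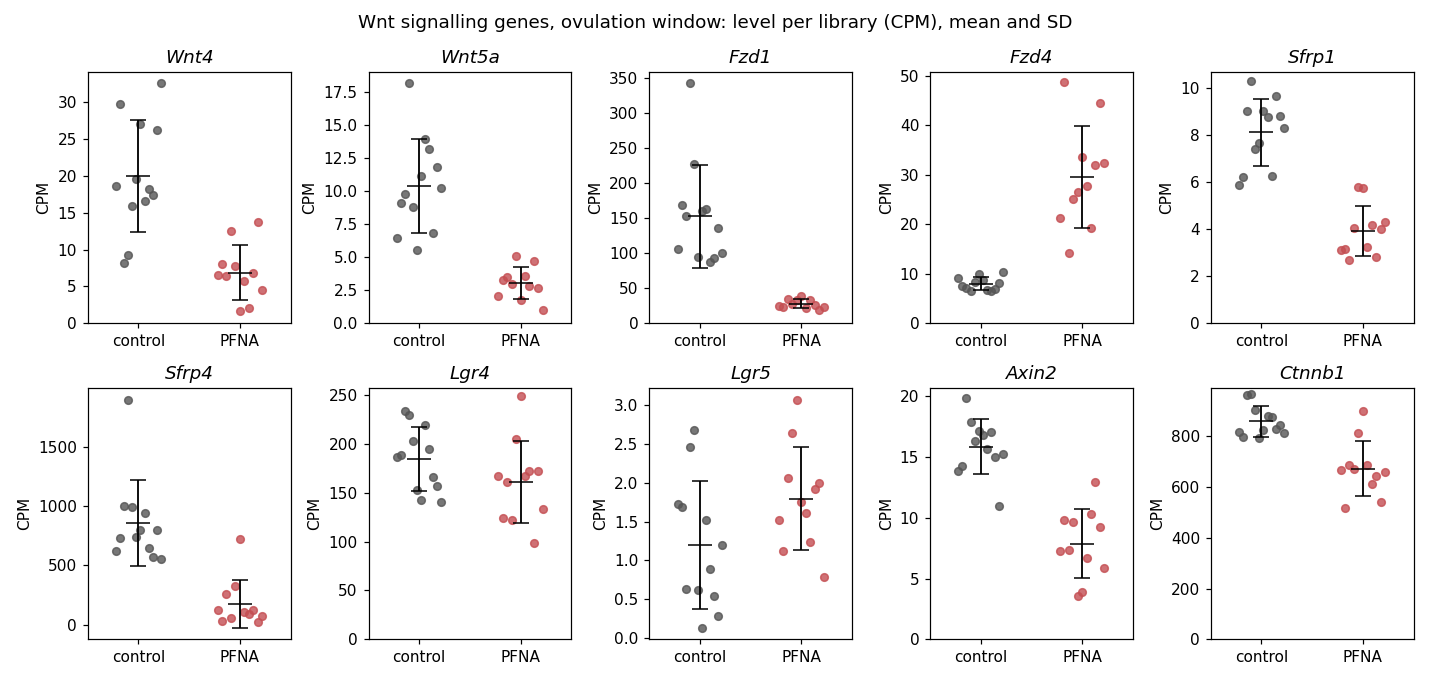
Level of each of the 10 genes in the 12 control and 11 PFNA libraries of the ovulation window, in TMM-normalized CPM on a linear axis that differs between panels; each point is a library, and the bars give the mean and SD. The groups do not overlap for Wnt5a, Fzd1 and Sfrp1, which are lower with PFNA, and for Fzd4, which is higher.

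Markers of other cells moved in the same libraries. In the ovulation window 5 of 5 endothelium markers and 3 of 3 smooth muscle markers tested were higher with PFNA, as were Krt8 and Krt18, the 2 surface epithelium markers tested. Of the granulosa markers 7 of 9 were higher and 1, Inha, lower, while their summed level, 6435 to 8944 CPM in controls and 5667 to 9315 CPM with PFNA, overlapped. Inha made up most of that sum (means 7343 CPM in controls and 5531 CPM with PFNA). The sum therefore says little of the other granulosa markers. Theca markers summed to 119 to 439 CPM in controls and 223 to 1016 CPM with PFNA, and oocyte markers to 84.2 to 409 and 14.1 to 504 CPM. Lhcgr alone made up 778 CPM of the highest theca sum. Of those tested, 4 of 8 theca markers were higher and 2 lower, 6 of 11 oocyte, 3 of 6 stroma and 2 of 5 immune markers were higher, and 1 stroma marker was lower. Over all genes tested in this window 38.0% were higher and 35.2% lower, so the theca, stroma and immune counts are near the background. In the maturation window 11 of 11 oocyte markers tested were lower, 7 of 9 granulosa markers were lower and 1 higher, 2 of 2 immune markers and 2 of 7 theca markers were higher with 1 theca marker lower, and none of the stroma, endothelium, surface epithelium or smooth muscle markers tested passed. The shares over all genes tested there were 13.3% higher and 16.1% lower. The part of these cells in the changes of the 10 genes was not tested, apart from the fits with the oocyte markers as a covariate. In the maturation window those fits could hardly separate the oocyte markers from PFNA.

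The effects of the windows were compared on the log2(value + 1) scale, as the effect in the ovulation window minus that in the maturation window. All 9 genes tested in both windows differed (limma within each table, adjusted p from 2.2e-12 to 0.002), against 67.7% of 11215 genes, and 8 of the 9 were lower in the ovulation window, against 35.6% of genes. Sfrp4 had the largest difference of the 9, -3.71 (SE 0.65), from effects of 0.84 and -2.87. Fzd1 differed by -2.50 (SE 0.23), Wnt5a by -2.14 (SE 0.31), Sfrp1 by -1.49 (SE 0.35) and Wnt4 by -1.40 (SE 0.40). Axin2, Lgr4 and Ctnnb1 differed by -1.07, -0.62 and -0.43. Fzd4 was the exception in sign, with effects of 0.75 and 1.71 and a difference of 0.96 (SE 0.19, adjusted p = 2.9e-05), so it rose in both windows and more after hCG. The windows come from separate tables, and window and table cannot be told apart.

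**Figure D3:**
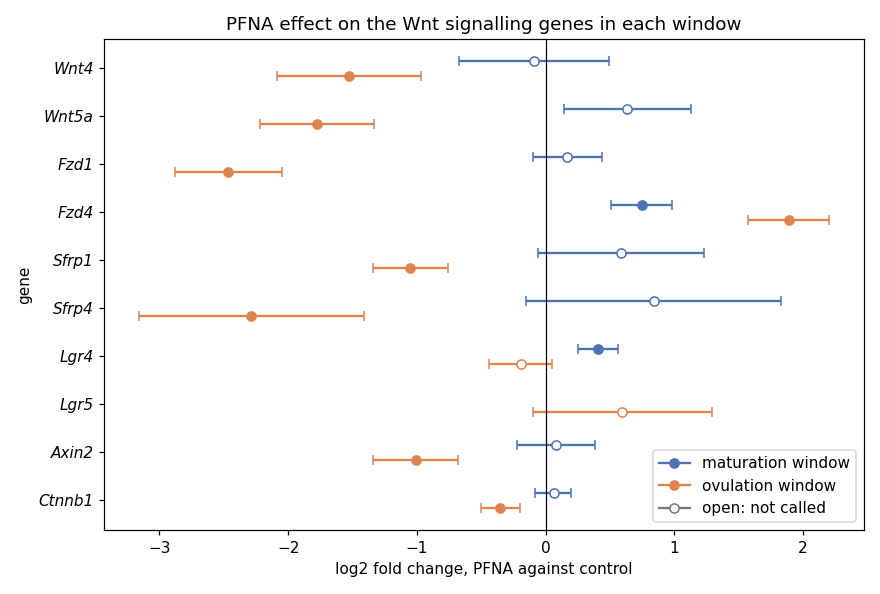
Log2 fold change of PFNA against control for each gene, with its 95% interval, in the maturation window (blue, on log2(TPM + 1), limma) and the ovulation window (orange, edgeR); filled points passed an adjusted p under 0.05 and open points did not. Fzd4 is the 1 gene to the right of 0 in both windows with both points filled, and Lgr5 has a point in the ovulation window only.

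The whole Frizzled family was set beside Fzd1 and Fzd4. Of 10 Frizzled genes 9 were tested in each window, and Fzd10 was too low in both. After hCG, 8 of 9 fell with PFNA and Fzd4 alone rose, where 35.2% of all genes tested were lower and 38.0% higher. Fzd9 and Fzd1 fell by 2.56 and 2.47 on the log2 scale, Fzd8 by 1.64, Fzd5 by 1.21, Fzd3 by 1.15, Fzd6 by 1.01, Fzd2 by 0.98 and Fzd7 by 0.84 (edgeR adjusted p at most 7.9e-05). For Fzd3, Fzd5, Fzd7, Fzd8 and Fzd9, as for Fzd1, all 11 PFNA libraries lay below every control (14.1% of all genes tested). In the maturation window Fzd4, Fzd7, Fzd6 and Fzd8 rose by 0.75, 0.61, 0.40 and 0.32 (limma adjusted p from 9.3e-05 to 0.036) and the other 5 tested did not pass, where 13.3% of all genes were higher. The Fzd7 call was lost with the oocyte covariate (log2 fold change 0.52, adjusted p = 0.13), and that of Fzd4 was kept. Fzd6 and Fzd8 were not looked at one by one in that fit. Fzd3, whose receptor is best known from planar cell polarity, went from 156 ± 12.8 to 70.0 ± 9.19 CPM after hCG and had a log2 fold change of -0.10 (adjusted p by limma 0.41) in the maturation window.

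**Figure D4:**
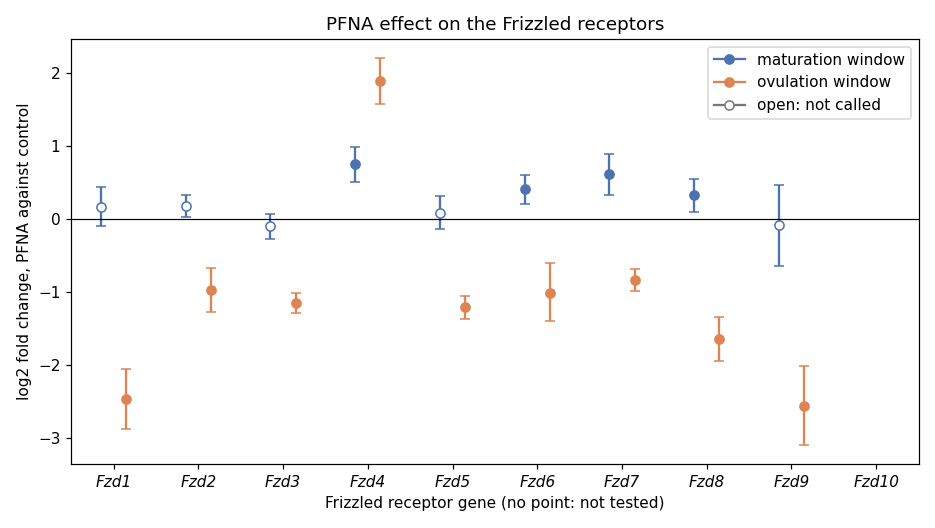
Log2 fold change of PFNA against control, with its 95% interval, for the 10 Frizzled receptor genes in the maturation window (blue) and the ovulation window (orange); filled points passed an adjusted p under 0.05. In the ovulation window 8 of the 9 genes tested lie below 0 and Fzd4 lies at 1.89.

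A list of 100 other Wnt pathway genes was read from the same fits. In the maturation window 65 of the 90 listed genes were tested, and 25 were called, 20 higher and 5 lower (38.5%, against 29.4% of all genes). Their median log2 fold change was 0.18, against 0.02 over all genes tested. Of the ligands and R-spondins, 2 of 16 listed were high enough to test and neither passed. With the oocyte markers as a covariate, which nearly followed the treatment in this window, 9 of the 65 genes were called. The share of all genes called in that fit is not given here, so whether the drop is particular to these genes cannot be said. The genes named below are, for each role, direction and window, the called gene with the smallest p. Genes picked that way tend to separate the groups, so their separation describes them and is no further support. In the maturation window every PFNA library lay above every control for 0.489% of all genes tested, and below every control for 0.788%.

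Sox4, a transcription factor that can bind β-catenin and TCF, had 660 ± 119 TPM in controls (SD, n = 11) and rose to 1493 ± 422 TPM (SD, n = 10), beyond the highest control in 10 of 10 PFNA libraries (log2 fold change 1.15, adjusted p by limma 7.1e-06, with an SE of 0.14). Tcf7, which encodes the TCF1 factor, fell from 15.1 ± 2.05 to 8.03 ± 1.64 TPM, with 10 of 10 libraries below every control (log2 fold change -0.84, adjusted p by limma 4.8e-06, with an SE of 0.095). Myc, a growth regulator with many inputs besides Wnt, rose by a log2 fold change of 1.08 (adjusted p by limma 0.0018), and Dact1, a Dishevelled-binding regulator, by 1.14 (adjusted p = 0.0015). Among the receptors Fzd7 rose (0.61) and the coreceptor gene Lrp5 fell (-0.43, adjusted p = 0.0026). The secreted inhibitor gene Frzb (0.77) and Wls (0.34), which carries Wnt proteins to the cell surface, rose, and Dvl2, a Dishevelled gene, fell by 0.21 on the log2 scale with 10 of 10 libraries below every control. With the oocyte covariate the calls of Fzd7, Lrp5, Frzb, Wls and Dvl2 were lost (adjusted p from 0.088 to 0.32). Their log2 fold changes in that fit were 0.52 for Fzd7, -0.35 for Lrp5, 0.42 for Frzb, 0.35 for Wls and -0.16 for Dvl2.

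In the ovulation window 76 of 96 listed pathway genes were tested and 57 were called, 19 higher and 38 lower (75.0%, against 73.2% of all genes). The share called was near the background, and the median log2 fold change was -0.28 against 0.04. Of the receptors tested 11 of 14 were lower and 2 higher, at a median of -0.99, where 35.2% of all genes were lower. Cytoplasmic transducers had 14 of 22 lower and 4 higher, at a median of -0.27.

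Sfrp2, a relative of Sfrp1 and Sfrp4, had 53.2 ± 20.9 CPM in controls (SD, n = 12) and fell to 0.989 ± 0.530 CPM (SD, n = 11), the largest change of the pathway genes tested. Control libraries had 429 to 1380 counts and PFNA libraries 0 to 39 (log2 fold change -5.72, adjusted p by edgeR 4.1e-14, with an SE of 0.30). Wnt11, a ligand of β-catenin-independent signalling, fell from 38.5 ± 14.6 to 2.19 ± 1.86 CPM (log2 fold change -4.14, adjusted p by edgeR 2.6e-11, with an SE of 0.31). All 11 PFNA libraries were below every control for Wnt11 (14.1% of all genes tested). Of the extracellular inhibitors on the list, 6 were tested, of which 2 were higher and 3 lower, and Frzb, also a Frizzled-related protein gene, was among the higher ones (1.19, adjusted p by edgeR 0.00022). Of the 7 ligands and R-spondins tested, 2 were higher and 1, Wnt11, was lower. The shares called were 83.3% of these inhibitors and 42.9% of the ligands and R-spondins, against 73.2% of all genes. Over all genes tested 38.0% were higher and 35.2% lower.

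Other pathway genes rose. Tle2, a Groucho corepressor that TCF factors recruit, went from 3.98 ± 0.906 to 37.2 ± 8.36 CPM (log2 fold change 3.22, adjusted p by edgeR 3.8e-16, with an SE of 0.14). Every PFNA library was above every control for Tle2 (11.9% of all genes tested). Wnt2b rose from 1.32 ± 0.395 to 5.42 ± 1.40 CPM (log2 fold change 2.04, adjusted p by edgeR 1.1e-09). Dkk2, a secreted inhibitor that binds Lrp coreceptors, and Lgr6, a further R-spondin receptor, rose by 2.88 and 2.68 on the log2 scale (adjusted p by edgeR 3.2e-05 and 1.8e-06) at 0 to 13 and 3 to 26 counts per control library. Fst, the activin-binding protein follistatin, rose from 1069 ± 109 to 1937 ± 485 CPM. Wls and Tnks, which encodes an enzyme that marks Axin for destruction, had log2 fold changes of 0.71 and 0.54.

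The remaining genes that the rule named in this window fell. Vangl2, a planar cell polarity gene, went from 32.5 ± 3.79 to 12.02 ± 1.85 CPM (log2 fold change -1.44, adjusted p by edgeR 4.2e-13) and Pygo2, a β-catenin coactivator, from 97.9 ± 8.20 to 53.0 ± 7.03 CPM (log2 fold change -0.89). For both, all 11 PFNA libraries lay below every control (14.1% of all genes tested). Cd44, a cell surface hyaluronan receptor and Wnt target in other tissues, fell by 1.34 on the log2 scale (adjusted p by edgeR 1.1e-05) with 6 of 11 libraries below every control.

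**Figure D5:**
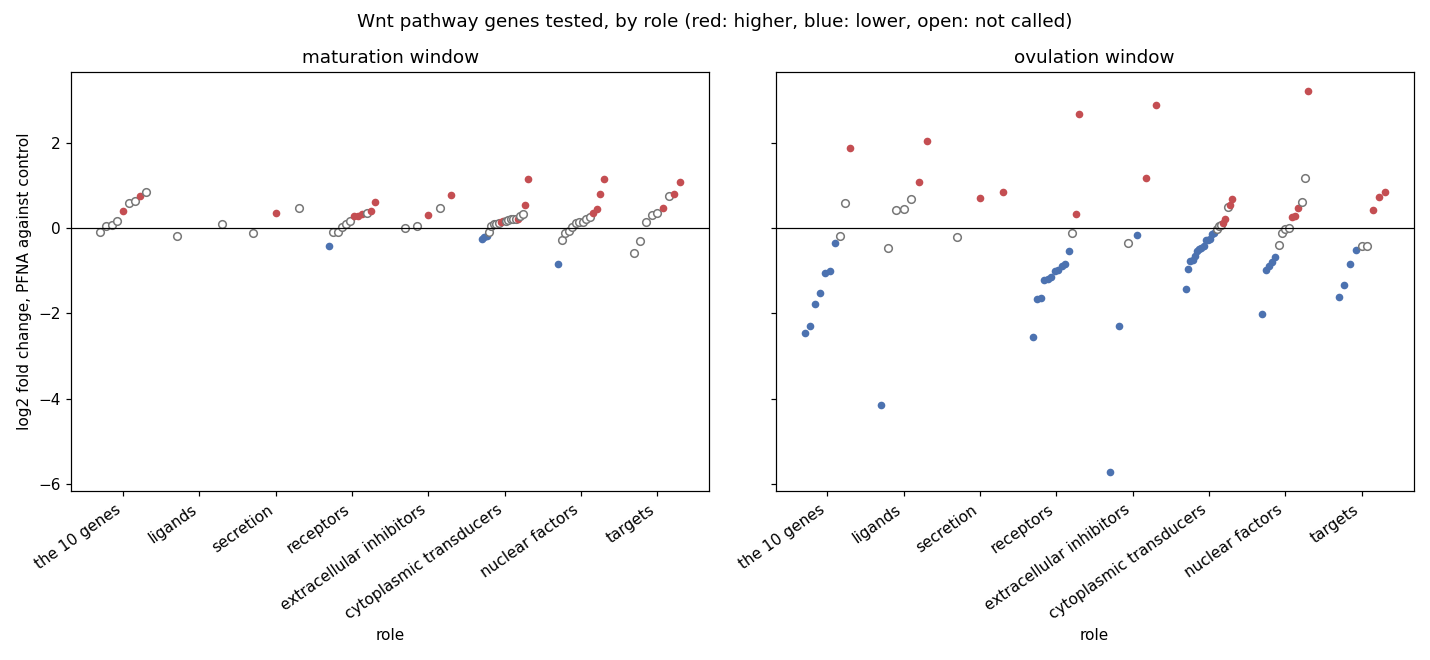
Log2 fold change of PFNA against control for each of the 10 genes and each other Wnt pathway gene tested, grouped by role, in the maturation window (left) and the ovulation window (right); red points were called higher, blue points lower, and open points did not pass. In the maturation window 20 pathway genes are red and 5 blue, and in the ovulation window 19 are red and 38 blue.

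Fzd4 was the member with the smallest p in each window. The genes whose log2 levels, taken from the control mean, followed it most closely over all 21 maturation libraries were Megf9, Nipal3 and Jade3, with root mean square differences of 0.219, 0.252 and 0.253. Over the 23 ovulation libraries they were Ccdc18, Mpv17l and Myh3, with 0.282, 0.283 and 0.302. The measure takes in the PFNA effect itself.

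How the genes varied with each other was read within each group, from 162 pairs, with permutation p-values of 100000 resamples. No pair passed an adjusted p under 0.05 by both Pearson's r and Spearman's rho. By r alone 19 pairs passed and by rho alone 0, and at an unadjusted p under 0.05 there were 53 and 32. Leaving out the 2 libraries farthest from the median kept 10 of the 19 at an unadjusted p under 0.05. Levels in a library share its depth and cell makeup. The smallest adjusted p, 0.0073, belonged to Wnt5a and Ctnnb1 in maturation PFNA libraries (r = 0.949, rho = 0.818 with adjusted p = 0.12, by permutation) and to Sfrp4 and Ctnnb1 in ovulation PFNA libraries (r = 0.922, rho = 0.818 with adjusted p = 0.079). Without the 2 farthest libraries r was 0.856 and 0.830 (permutation p 0.0081 and 0.0074).

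Fzd1 and Sfrp4 in hCG-treated controls passed by r alone, with r = 0.901 (permutation adjusted p = 0.0081) and rho = 0.727 (adjusted p = 0.12). Without control replicates 4 and 9 r was 0.807. Under PFNA the pair had r = 0.813 (adjusted p = 0.03) and rho = 0.736 (adjusted p = 0.12), and r = 0.609 (permutation p = 0.085) without PFNA replicates 6 and 10. In maturation controls Wnt5a and Axin2 had r = 0.806 (adjusted p = 0.026), rho = 0.873 (adjusted p = 0.051) and r = 0.878 without control replicates 8 and 11. Axin2 and Ctnnb1 had r = 0.889 in the maturation PFNA libraries (rho 0.806, adjusted p 0.026 and 0.12) and r = -0.788 in the ovulation PFNA libraries (rho -0.727, adjusted p 0.046 and 0.13). Without the 2 farthest libraries these became 0.635 and -0.424 (permutation p 0.098 and 0.26, on fewer libraries).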

How the data were processed

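Gene tables of both windows were read as deposited. The name of the maturation table says raw counts, yet the values the authors deposited are TPM: each library sums to 1000000, 82.3% of values are not whole (tolerance 0.001), and control levels relative to the ovulation table fall with transcript length (Spearman correlation across 11120 genes -0.553). So its depth is not known. The deposited ovulation values are estimated counts (14.9% not whole), rounded here, and library totals, in units of 1000000 counts, ran from 10.6 to 19.5. Partek, Bowtie2 and HISAT2 are named in the submitters' processing notes. Their roles, versions, the annotation and the use of strand are not given in the sources used here. The start and end of the 10 genes in the maturation table match GENCODE M21 on GRCm38. The column of maturation control replicate 6 differs from its title by a letter and was taken as that sample.

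For the maturation window, limma 3.58.1 was run on log2(TPM + 1) (trend, robust, mean of at least 1 TPM), the ovulation window with edgeR 4.0.16 (quasi-likelihood, filterByExpr, TMM, R 4.3.3), with Benjamini-Hochberg adjustment over all genes tested. CPM are TMM-normalized. The SE of an edgeR fold change is taken from its F statistic, and 95% intervals are normal. The difference between windows used limma within each table and Satterthwaite's degrees of freedom. The fits, tested on simulated data with 200 genes changed 2-fold, recovered 100% in each window, with 1.48% (maturation) and 2.91% (ovulation) of calls false. For the difference between windows, 98.2% of 167 changed genes were recovered and 6.29% of calls were false, above the nominal 5%. The simulation gave every gene the same dispersion and changed only genes above a minimum mean. Its maturation counts were made from TPM at an assumed depth. These rates therefore do not describe genes as variable as Sfrp4 or as low as Lgr5. Alternatives were other scalings, filters, pseudocounts and tools (DESeq2 1.42.0 among them), a covariate, a block and each library left out. The 10 genes, the lists and the tests were chosen with earlier results of these data known. Pathway genes named are, per role, direction and window, the called gene with the smallest p, and 3 genes nearest to the member with the smallest p.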

Additional observations from a re-analysis of the deposited data

Results flagged for a closer look

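In the maturation PFNA group, the 1 group of at most 10 libraries, the levels of 18 genes (9 of the 10 members and 9 pathway genes) were searched for a library set apart from its neighbour by more than Dixon's critical value. There were 6. For independent searches of normal values chance gives about 1 in 20, or 0.9. The search used TPM without the log2 step of the fits, and the genes share libraries, so the 6 cannot be weighed against 0.9. PFNA replicate 10 gave 5 of the 6: Wnt4 at 18.2 TPM against 4.98 in the next library, Wnt5a at 24.6 against 13.9, Fzd1 at 156 against 95.8, Sfrp1 at 24.4 against 4.03 and Axin2 at 8.55 against 4.48. The same library had the highest stroma, surface epithelium and oocyte marker sums of the group. The other was Sfrp4 in PFNA replicate 8, at 99.0 TPM against 32.6.

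The PFNA effect differed between the windows for each gene tested in both, ovulation minus maturation on the log2 scale: Sfrp4 by -3.71, Fzd1 by -2.50, Wnt5a by -2.14, Sfrp1 by -1.49, Wnt4 by -1.40, Axin2 by -1.07, Lgr4 by -0.62, Ctnnb1 by -0.43 and Fzd4 by 0.96 (limma within each table, adjusted p at most 0.002). Of all genes, 67.7% differed.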

How the results depend on the processing

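Of the 10 genes, 2 were called in the maturation window, and 1 with the oocyte markers as a covariate, where pathway genes went from 25 to 9. That covariate nearly followed the treatment there, so these lost calls cannot tell oocyte content from PFNA. With the replicate number as a block 16 pathway genes were called there, and Frzb missed (0.68, adjusted p = 0.053). The shares of all genes called in the covariate and block fits are not given here. Same-numbered libraries did not deviate together (median correlation -0.031 over 9 pairs and -0.061 over 11), and none of the PFNA libraries correlated best with its own number. Leaving out 1 library gave 2 to 3 of the 10 and 20 to 28 pathway genes in the maturation window, 8 to 9 and 53 to 58 in the ovulation window, and 9 differing between windows throughout. Left-out libraries moved Wnt4 in the maturation window from -0.31 to 0.03 and Axin2 from -0.02 to 0.15. Reversed signs, none of them called, were Wnt4 in the maturation window with the oocyte covariate (0.55), without PFNA replicate 6 (0.03) or without control replicate 8 (0.01), and Axin2 there without PFNA replicate 10 (-0.02). Median-ratio size factors moved the median of all genes by less than 0.1 on the log2 scale. The causes were not tested. TPM carry no depth, and Lgr5 was too low to test in the maturation window.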
